A study of Arabidopsis thaliana with 18 samples.

Results

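Seedlings of the Arabidopsis thaliana pyl duodecuple line, which is mutated in most genes of the PYR/PYL family of abscisic acid (ABA) receptors, differed between ABA and mock medium in few transcripts. Of the 6740 genes in the deposited expression table, 4154 (61.6%) had at least 5 FPKM in ABA-treated or control mutant seedlings and were taken as members. FPKM is the number of sequenced fragments scaled to the length of the transcript and to the number of mapped fragments. For a gene with a low control value, membership therefore depends on the ABA value, and for one with a low ABA value on the control value. Of the members 4018 had at least 5 FPKM in control mutant seedlings, and 136 passed through the ABA-treated group alone. The genes nearest to the limit were SUS4 at 4.9971 FPKM and AT4G14330 at 4.9971 FPKM just under it, and AT5G44574 at 5.0017 FPKM and RNS1 at 5.0035 FPKM just over it.

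The groups were duodecuple seedlings on 100 µM ABA, duodecuple seedlings on mock medium, wild-type Col-0 seedlings on 100 µM ABA and Col-0 seedlings on mock medium. Duodecuple and Col-0 seedlings on 300 mM mannitol, an osmotic stress, formed a further pair of groups. All seedlings were 9 days old, were laid on filter paper for 24 h and were sampled whole, and each of the 6 groups had 3 libraries. The numbers in the title of the series leave out PYL6 and PYL13, so those receptor genes may be intact. The labels name a single mutant line and do not describe its alleles.

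The table holds 1 value per gene and group, the authors' value over the 3 libraries, so every level printed here is the authors' value and has no replicate error. Nothing in the labels says that the 3 libraries came from separate cultures. No test between groups could be made, and the depth of the libraries is unknown. Differences are log2 ratios of (FPKM + 1), ABA over control, which understate the change of genes with few FPKM. "Higher" and "lower" in the counts below mean at least 2-fold on that scale. The table lists only genes that the authors called changed in at least 1 of their 4 comparisons, so shares refer to that table and not to the genome.

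ABA is the hormone that accumulates in plants short of water. When it binds a PYR/PYL receptor, the complex blocks the clade A protein phosphatases 2C, which frees SnRK2 kinases to phosphorylate bZIP transcription factors of the ABF family. These bind promoters at the ABA-responsive element, whose core is ACGTG, and switch on genes for late embryogenesis abundant (LEA) proteins, dehydrins, lipid transfer proteins and the phosphatases themselves. In seedlings the same pathway slows growth and lowers transcripts of photosynthesis.

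The mutant response was small in number and in size. Of the 4154 members, 92 were higher under ABA (2.21%, against 1.77% of all genes listed) and 65 were lower (1.56%, against 1.19% of all genes listed). The other 3997 members (96.2%) lay within 2-fold. Of the 92 higher members 39 passed the 5 FPKM limit through the ABA-treated group alone, so they had to differ. Among the 4018 genes with at least 5 FPKM in control mutant seedlings, 53 (1.32%) were higher and 65 were lower. That minimum keeps every lower member, so these counts do not compare rises with falls. Many lower members, such as PCR1, SARD1, NAC036, IGMT2 and BHLH100, passed the limit through control mutant seedlings alone, so they had to differ. In wild type, 636 of the 4154 members were higher (15.3%, against 14.6% of all genes listed) and 963 were lower (23.2%, against 18.3% of all genes listed). The central 90% of members spanned log2 ratios of -0.61 to 0.67 in the mutant and -2.05 to 1.81 in wild type. The median log2 ratio was 0.02 in the mutant and -0.25 in wild type over the members. Over all genes listed it was -0.02 in the mutant and -0.22 in wild type.

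In the authors' deposited table, 102 members were called higher (2.46% of members, against 2.49% of all genes listed) and 87 were called lower (2.09%, against 2.79%) in the mutant. The authors' deposited table called 89 of the 92 higher members and 64 of the 65 lower ones. The uncalled ones in the authors' deposited table were LTP4, AT2G37870 and AT3G17520 among the higher members and the small nuclear RNA U12 among the lower ones. A further 36 members carried a call in the authors' deposited table while staying under 2-fold on the (FPKM + 1) scale. Without the added 1 FPKM the deposited ratios of these 36 were all at least 2-fold. The rule behind the calls is not given in the sources used here.

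The most abundant transcripts hardly moved, like most members. Of 48 members at 1000 FPKM or more in the mutant, 45 stayed within 1.5-fold in the mutant and 29 did so in wild type. Over all 4154 members a 1.5-fold limit gave 279 higher and 220 lower in the mutant, so the abundant genes are little set apart. The next values are those of the 48 abundant members. Their log2 ratios in the mutant ran from -0.90 to 0.42. RBCS1A, which encodes the Rubisco small subunit, had 11967 FPKM in ABA-treated and 10869 FPKM in control mutant seedlings, against 8350.29 FPKM in ABA-treated and 11770 FPKM in control wild type. The actin gene ACT2, which is not among the 48, had 537 FPKM in ABA-treated and 484 FPKM in control mutant seedlings. Whole seedlings hold many tissues, and in such bulk samples fewer cells of a type and less RNA per cell cannot be told apart.

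The promoters of 4 of the members with the highest ratios are shown first, from genes 6-fold or more higher under ABA in this line. They were picked for holding the ABA-responsive core at 2 or more sites and for overlapping no other gene. They are the 250 bases before the annotated gene start, read from the TAIR10.1 genome of RefSeq and printed 5′ to 3′ on the strand of the gene. Capitals mark ACGTG or its reverse complement CACGT, and a G-box (CACGTG), where both overlap, is counted as 1 site. LEA7 and RD29B held 4 sites each, and AT3G02480 and AT3G17520 held 2 each. Sites were not particular to rises. Of the 15 largest rises LTP4 and LTP3, for example, held none, while of the 15 largest falls SDI1 and LHCB1.4 held 3 each.
LEA7, chr1:19619474-19619723, plus strand: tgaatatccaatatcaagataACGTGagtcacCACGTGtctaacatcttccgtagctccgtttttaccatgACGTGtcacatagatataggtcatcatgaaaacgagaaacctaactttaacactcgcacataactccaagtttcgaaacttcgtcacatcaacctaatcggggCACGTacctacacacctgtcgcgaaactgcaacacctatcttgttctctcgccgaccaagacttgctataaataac
AT3G02480, chr3:511970-512219, plus strand: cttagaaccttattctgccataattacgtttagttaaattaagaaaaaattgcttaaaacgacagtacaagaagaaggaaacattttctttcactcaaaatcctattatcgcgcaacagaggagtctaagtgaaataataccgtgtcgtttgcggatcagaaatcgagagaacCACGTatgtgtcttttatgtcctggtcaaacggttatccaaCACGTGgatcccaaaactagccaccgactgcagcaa
AT3G17520, chr3:6000448-6000697, minus strand: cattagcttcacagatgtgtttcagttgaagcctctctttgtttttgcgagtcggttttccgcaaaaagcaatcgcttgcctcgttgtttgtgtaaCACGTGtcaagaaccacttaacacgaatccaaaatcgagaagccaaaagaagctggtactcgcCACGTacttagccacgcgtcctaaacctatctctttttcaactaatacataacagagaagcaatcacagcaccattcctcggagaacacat
RD29B, chr5:21236771-21237020, plus strand: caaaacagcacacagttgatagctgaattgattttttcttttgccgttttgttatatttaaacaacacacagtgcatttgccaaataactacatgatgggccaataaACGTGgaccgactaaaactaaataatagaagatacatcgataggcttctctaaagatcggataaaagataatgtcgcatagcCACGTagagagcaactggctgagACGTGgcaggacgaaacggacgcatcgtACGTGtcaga

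These 4 genes encode LEA-type proteins, small hydrophilic proteins that accumulate in drying seeds and in water-stressed tissue. LEA7 had 26.9 FPKM in ABA-treated and 0.216 FPKM in control mutant seedlings, a log2 ratio of 4.52, against 1305 FPKM in ABA-treated and 5.52 FPKM in control wild type. AT3G02480 had 36.1 FPKM in ABA-treated and 1.84 FPKM in control mutant seedlings, against 1477 FPKM in ABA-treated and 10.3 FPKM in control wild type. AT3G17520 had 10.7 FPKM in ABA-treated and 0.128 FPKM in control mutant seedlings, against 411 FPKM in ABA-treated and 3.02 FPKM in control wild type. All of these were higher under ABA in both genotypes, with ABA-treated mutant seedlings far under ABA-treated wild type. RD29B, a classic reporter of ABA signalling, had 6.83 FPKM in ABA-treated and 0.169 FPKM in control mutant seedlings, against 247 FPKM in ABA-treated and 1.82 FPKM in control wild type.

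The gene lists were chosen with earlier results of these data known, and their counts are to be read against the shares over all genes. Of all genes listed 1.77% were higher and 1.19% lower in the mutant, and of all members 2.21% and 1.56%. Across the 21 listed genes for LEA proteins, dehydrins and cold-regulated proteins, without the limit on FPKM, 8 were higher and none was lower in the mutant. Their median log2 ratio was 0.90 in the mutant and 3.61 in wild type. Of the 8 higher genes 7 were members through the ABA-treated group alone, and of the 12 with at least 5 FPKM in control mutant seedlings 1 was higher, with medians of 0.44 in the mutant and 2.66 in wild type. RAB18, a dehydrin, had 70.3 FPKM in ABA-treated and 2.85 FPKM in control mutant seedlings, a log2 ratio of 4.21. COR15A, which protects chloroplast membranes in the cold, had 60.4 FPKM in ABA-treated and 2.58 FPKM in control mutant seedlings, a log2 ratio of 4.098. RD20, a caleosin of lipid droplets, had 10.8 FPKM in ABA-treated and 2.26 FPKM in control mutant seedlings. The 8 higher members had control levels of 14.4 FPKM or less in the mutant, while several abundant genes of the list stayed within 2-fold. KIN2 had 234 FPKM in ABA-treated and 203 FPKM in control mutant seedlings, against 1548 FPKM in ABA-treated and 180 FPKM in control wild type. RD22, which encodes a BURP-domain protein, had 75.5 FPKM in ABA-treated and 79.4 FPKM in control mutant seedlings, against 684 FPKM in ABA-treated and 74.3 FPKM in control wild type. KIN1 and KIN2 are near-identical neighbours whose fragments may be split between them.

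Lipid transfer proteins, small secreted proteins linked to cuticle and suberin, included the 2 highest ratios of all members. LTP4 had 67.5 FPKM in ABA-treated and 0.0498 FPKM in control mutant seedlings, a log2 ratio of 6.03, against 2695 FPKM in ABA-treated and 2.93 FPKM in control wild type. AT2G37870, a lipid-transfer and 2S albumin-like protein, had 36.5 FPKM in ABA-treated and 0.174 FPKM in control mutant seedlings, a log2 ratio of 4.998. LTP3 had 38.7 FPKM in ABA-treated and 2.71 FPKM in control mutant seedlings, a log2 ratio of 3.42. LTP3 and LTP4 lie side by side and are close copies, so the split between them is uncertain. All 11 listed genes of the list were members, 4 were higher and none was lower, and the median log2 ratio was 0.55 in the mutant and 3.47 in wild type. All 4 higher genes passed through the ABA-treated group alone, and none of the 7 with at least 5 FPKM in control mutant seedlings was higher. The abundant LTP1 had 665 FPKM in ABA-treated and 671 FPKM in control mutant seedlings, against 1837 FPKM in ABA-treated and 614 FPKM in control wild type. AZI1 and EARLI1, relatives that act in defence and cold, went opposite ways in the genotypes without reaching 2-fold in the mutant. EARLI1 had 254 FPKM in ABA-treated and 174 FPKM in control mutant seedlings, against 13.96 FPKM in ABA-treated and 192 FPKM in control wild type.

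**Figure D1:**
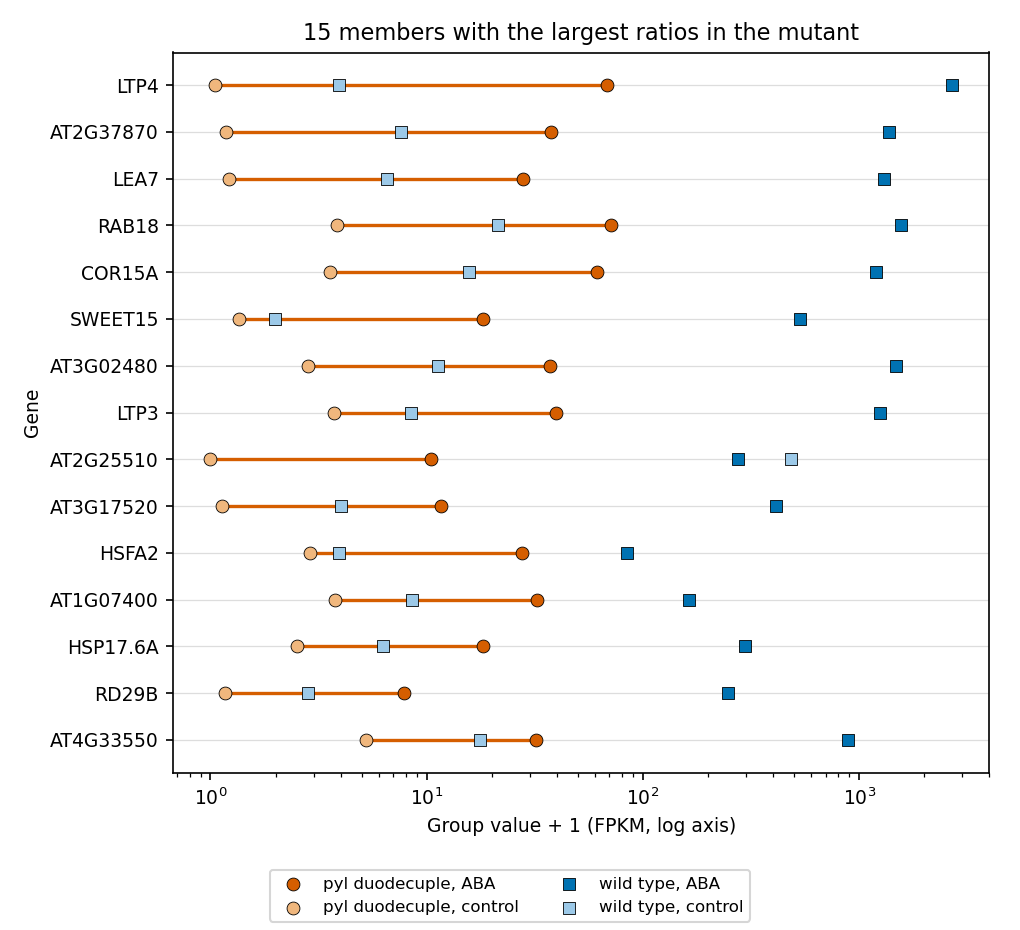
The 15 members with the largest log2 ratio in the mutant, with the authors' value plus 1 in FPKM on a log axis for ABA-treated and control mutant seedlings (circles, joined by a line) and ABA-treated and control wild type (squares). ABA-treated mutant seedlings sit right of the control mutant seedlings in every row and left of ABA-treated wild type, and in the row of AT2G25510 both wild-type squares lie far to the right.

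Heat shock genes had the highest median ratio of the lists. Their products are chaperones that hold or refold damaged proteins, and HSFA2 is a transcription factor that amplifies their expression. Of the 25 listed genes, without the limit on FPKM, 16 were higher and none was lower in the mutant, with a median log2 ratio of 1.53 in the mutant and 3.37 in wild type. Of the 18 members 7 passed through the ABA-treated group alone. Among the 11 with at least 5 FPKM in control mutant seedlings 7 were higher, with medians of 1.37 in the mutant and 2.71 in wild type. HSFA2 had 26.7 FPKM in ABA-treated and 1.89 FPKM in control mutant seedlings, a log2 ratio of 3.26, against 83.4 FPKM in ABA-treated and 2.93 FPKM in control wild type. The chaperone HSP90.1 had 53.2 FPKM in ABA-treated and 9.07 FPKM in control mutant seedlings, against 185 FPKM in ABA-treated and 14.3 FPKM in control wild type. HSP101, a disaggregase needed for heat tolerance, had 24.2 FPKM in ABA-treated and 5.19 FPKM in control mutant seedlings, against 72.6 FPKM in ABA-treated and 6.87 FPKM in control wild type. HSP17.6A had 17.3 FPKM in ABA-treated and 1.52 FPKM in control mutant seedlings, against 296 FPKM in ABA-treated and 5.27 FPKM in control wild type. Several small heat shock proteins are close copies of each other, so their single values are uncertain.

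Other heat shock factors stayed within 2-fold in the mutant. HSFA3 had 7.21 FPKM in ABA-treated and 5.33 FPKM in control mutant seedlings, against 0.770 FPKM in ABA-treated and 4.90 FPKM in control wild type. HSFA7A had 33.2 FPKM in ABA-treated and 20.6 FPKM in control mutant seedlings, against 17.2 FPKM in ABA-treated and 21.6 FPKM in control wild type. The co-activator MBF1C had 91.1 FPKM in ABA-treated and 30.9 FPKM in control mutant seedlings, a log2 ratio of 1.53. DREB2A, a drought and heat regulator that acts upstream of heat shock factors, had 12.5 FPKM in ABA-treated and 5.04 FPKM in control mutant seedlings, against 16.6 FPKM in ABA-treated and 5.76 FPKM in control wild type. Its ABA-treated levels were thus close in the 2 genotypes. Under mannitol HSFA2 had 4.77 FPKM in mutant and 5.33 FPKM in wild-type seedlings.

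The promoter of HSP17.4 is shown because it holds 2 copies of the heat shock element, an inverted repeat of GAA and TTC units that heat shock factors bind, marked in capitals. HSP17.4 had 9.69 FPKM in ABA-treated and 1.28 FPKM in control mutant seedlings, against 285 FPKM in ABA-treated and 3.98 FPKM in control wild type.
HSP17.4, chr3:16984868-16985117, minus strand: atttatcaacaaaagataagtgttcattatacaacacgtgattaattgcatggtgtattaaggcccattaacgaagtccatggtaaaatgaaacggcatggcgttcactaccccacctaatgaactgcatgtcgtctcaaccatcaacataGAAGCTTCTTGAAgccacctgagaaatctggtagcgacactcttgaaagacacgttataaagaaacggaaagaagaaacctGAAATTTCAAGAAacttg

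Markers of dehydration metabolism and senescence were higher in part. SWEET15, a sucrose exporter of senescing leaves, had 17.2 FPKM in ABA-treated and 0.357 FPKM in control mutant seedlings, a log2 ratio of 3.74, against 529 FPKM in ABA-treated and 0.981 FPKM in control wild type. ORE1, a NAC factor that drives leaf senescence, had 24.6 FPKM in ABA-treated and 9.08 FPKM in control mutant seedlings, against 36.9 FPKM in ABA-treated and 13.4 FPKM in control wild type. P5CS1, the stress-induced enzyme of proline synthesis, had 32.8 FPKM in ABA-treated and 13.8 FPKM in control mutant seedlings, against 226 FPKM in ABA-treated and 37.0 FPKM in control wild type. In the senescence list 3 of 10 listed genes were higher and none was lower. In the osmolyte list 2 of 9 were higher and none was lower, against 1.77% higher and 1.19% lower of all genes listed. In each of these 2 lists 1 of the higher genes was a member through the ABA-treated group alone. The early light-induced proteins ELIP1 and ELIP2, which bind free chlorophyll, were the 2 higher ones of 15 photosystem and Rubisco members. ELIP2 had 69.4 FPKM in ABA-treated and 23.75 FPKM in control mutant seedlings, against 116 FPKM in ABA-treated and 8.36 FPKM in control wild type.

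Members of the core of the ABA pathway lay within 2-fold in the mutant, as did 96.2% of all members. None of the 5 receptor members, 3 clade A phosphatases, 5 SnRK2 kinases, 5 ABA-responsive transcription factors and 4 genes of ABA metabolism was higher or lower, and so few genes do not set the core apart from the other members. PP2CA, a phosphatase that ABA induces as feedback, had 36.1 FPKM in ABA-treated and 27.6 FPKM in control mutant seedlings, against 238 FPKM in ABA-treated and 53.2 FPKM in control wild type. ABI1 had 29.3 FPKM in ABA-treated and 25.1 FPKM in control mutant seedlings, against 131 FPKM in ABA-treated and 33.6 FPKM in control wild type. The homeodomain factor HB12 had 8.22 FPKM in ABA-treated and 9.26 FPKM in control mutant seedlings, against 130 FPKM in ABA-treated and 14.1 FPKM in control wild type. RD26, a NAC factor, came nearest to the limit with 26.9 FPKM in ABA-treated and 16.3 FPKM in control mutant seedlings, a log2 ratio of 0.69. Phosphatases of the HAI type lay under the limit of 5 FPKM and were no members. HAI1 had 1.66 FPKM in ABA-treated and 0.663 FPKM in control mutant seedlings, against 97.8 FPKM in ABA-treated and 4.15 FPKM in control wild type. The authors' deposited table called HAI1 changed in the mutant, with a log2 ratio of 1.32 without an added value.

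Receptor transcripts did not follow the wild-type pattern. In wild type 4 of the 5 receptor members were lower under ABA. PYL6 had 56.9 FPKM in ABA-treated and 58.1 FPKM in control mutant seedlings, against 0.416 FPKM in ABA-treated and 16.1 FPKM in control wild type. PYL4 had 131 FPKM in ABA-treated and 112 FPKM in control mutant seedlings, against 37.0 FPKM in ABA-treated and 183 FPKM in control wild type. PYL5 had 17.5 FPKM in ABA-treated and 13.1 FPKM in control mutant seedlings, against 26.0 FPKM in ABA-treated and 90.6 FPKM in control wild type. Values of mutated receptor genes count transcripts of any form, so they do not say whether a protein is made. Of the 14 receptor genes 6 were in the table.

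The mutant ratios were set against the wild-type ratios over all 6740 genes listed, with no limit on FPKM, because strong wild-type responders that stayed low in the mutant are no members. The genotypes have separate control and ABA libraries. Across all genes listed, Pearson's r of the log2 ratios was 0.52 and Spearman's rho was 0.44. Over the 4018 genes with at least 5 FPKM in control mutant seedlings, r was 0.47 and rho was 0.47. These are descriptions across genes, which are not independent, in a table that holds only genes called changed. Among 28 genes with a wild-type log2 ratio of 5 or more, 22 (78.6%) were higher in the mutant, and their median mutant log2 ratio was 2.31. Among the 72 genes with a wild-type ratio between 3 and 4, 18 (25%) were higher, with a median of 0.50. Among the 680 between 1 and 2, 2.5% were higher, with a median of 0.17. Of the 18 genes with a wild-type ratio below -4, 5 (27.8%) were lower in the mutant, and their median was -0.70. With at least 5 FPKM in control mutant seedlings only 4 genes had a wild-type ratio of 5 or more, 2 of them higher in the mutant, and 34 had one between 3 and 4, 15 of them higher.

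**Figure D2:**
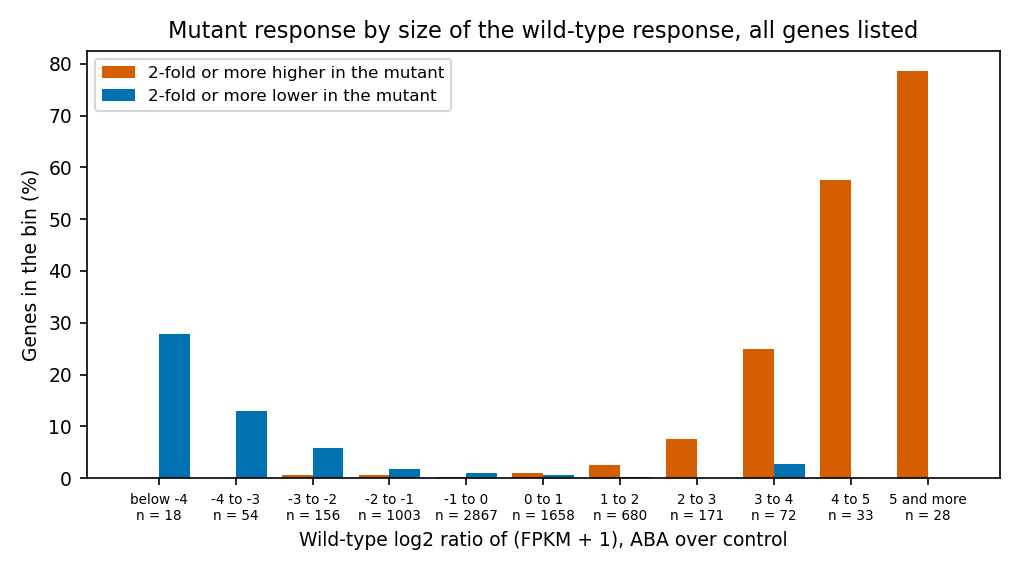
Share of all genes listed that were at least 2-fold higher (orange) or lower (blue) under ABA in the mutant, in bins of the wild-type log2 ratio, with the number of genes per bin under the axis. The orange bar is 78.6% in the bin of the largest wild-type ratios and the blue bar is 27.8% in the bin of the smallest, bins that hold 28 and 18 genes.

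Of the 92 members higher in the mutant, 69 were also higher in wild type (75%, against 15.3% of all members). They are 10.8% of the 636 members higher in wild type, a set that leaves out genes under the limit on FPKM in the mutant. Of the 92, 39 were members through the ABA-treated group alone, so this overlap depends in part on the limit. The overlap with a minimum in control mutant seedlings alone is given below. In 65 of these 69 the ratio was larger in wild type, and the medians were 1.57 in the mutant and 3.37 in wild type. Of the 65 lower members, 38 were also lower in wild type (58.5%, against 23.2% of all members). These 38 are 3.95% of the 963 members lower in wild type. Their medians were -1.51 in the mutant and -2.13 in wild type, and 11 of the 38 had the deeper ratio in the mutant. The higher members had a median level of 22.03 FPKM in ABA-treated and 5.26 FPKM in control mutant seedlings, against 90.7 FPKM in ABA-treated and 10.07 FPKM in control wild type. The lower members had a median of 13.7 FPKM in ABA-treated and 33.4 FPKM in control mutant seedlings, against 2.91 FPKM in ABA-treated and 14.5 FPKM in control wild type.

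**Figure D3:**
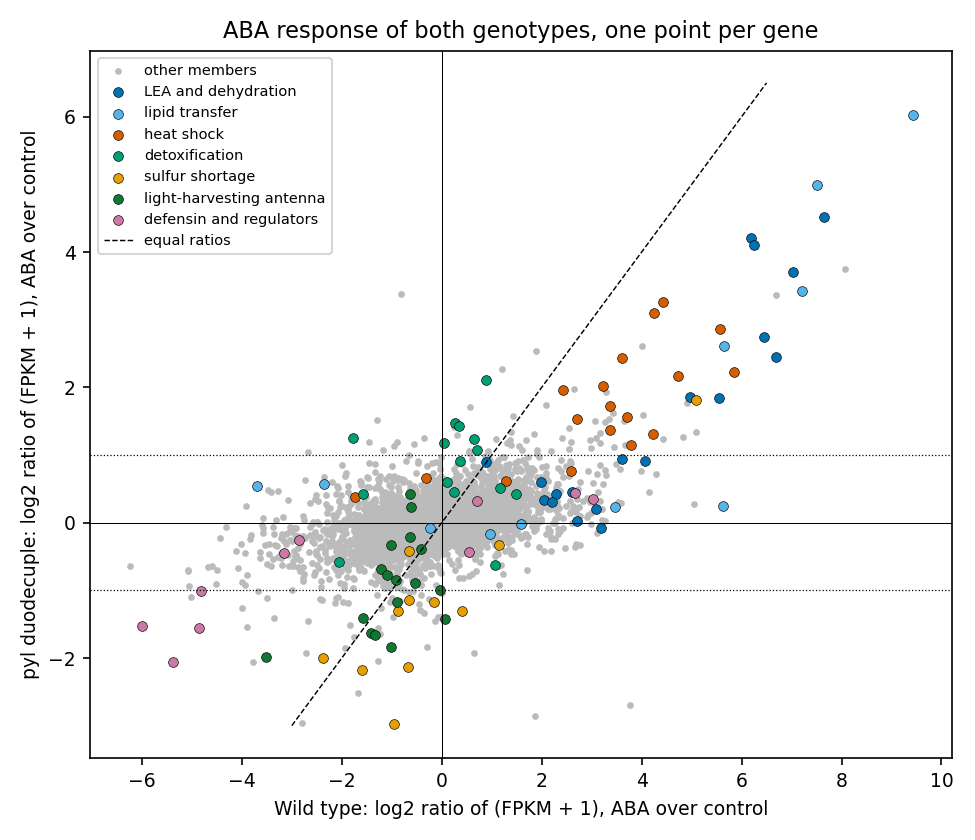
Log2 ratio of (FPKM + 1), ABA over control, in the mutant (vertical axis) and in wild type (horizontal axis) for the 4154 members, with the members of 7 gene lists in colour, dotted lines at the 2-fold limits and a dashed line of equal ratios. Most LEA and heat shock genes lie to the upper right and below the dashed line, and 8 of the 11 sulfur shortage genes lie under the lower dotted line. Detoxification genes lie on both sides of a wild-type ratio of 0, with 3 of 15 members higher and 3 lower in wild type.

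A set of 23 members was higher in the mutant and not in wild type, and 18 of them lay within 2-fold in wild type while 5 were lower there. Over all members 15.3% were higher and 23.2% were lower in wild type. The detoxification list holds enzymes that conjugate or oxidise foreign and electrophilic compounds. Of the 16 listed genes of that list 7 were higher and none was lower in the mutant, and among the 14 with at least 5 FPKM in control mutant seedlings 6 were higher. The median log2 ratio of these 14 was 0.76 in the mutant and 0.31 in wild type. The glutathione transferase GSTU25 had 89.3 FPKM in ABA-treated and 37.0 FPKM in control mutant seedlings, against 10.6 FPKM in ABA-treated and 38.8 FPKM in control wild type. GSTU24, its close copy, had 178 FPKM in ABA-treated and 78.03 FPKM in control mutant seedlings, against 103 FPKM in ABA-treated and 99.1 FPKM in control wild type. The cytochrome P450 gene CYP81D11 had 117 FPKM in ABA-treated and 42.7 FPKM in control mutant seedlings, against 36.8 FPKM in ABA-treated and 28.6 FPKM in control wild type. UGT74E2, a glucosyltransferase for the auxin indole-3-butyric acid, had 36.1 FPKM in ABA-treated and 7.56 FPKM in control mutant seedlings, against 50.3 FPKM in ABA-treated and 26.6 FPKM in control wild type. Here, unlike for the LEA genes, ABA-treated mutant levels matched or passed those of ABA-treated wild type in several members. Whether the responses of the genotypes differ was not tested, since each group has 1 value.

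Some of the higher members outside the lists carried other functions, and the genes of this paragraph were picked after their values were seen. STP1, a monosaccharide importer, had 167 FPKM in ABA-treated and 69.4 FPKM in control mutant seedlings, against 179 FPKM in ABA-treated and 230.2 FPKM in control wild type. SLAH3, a nitrate and chloride channel, had 73.2 FPKM in ABA-treated and 23.9 FPKM in control mutant seedlings, against 176 FPKM in ABA-treated and 65.2 FPKM in control wild type. For both genes the ABA-treated mutant value was nearer to the wild-type control than the control mutant value was. HIS1-3, a linker histone of drought, had 13.6 FPKM in ABA-treated and 5.27 FPKM in control mutant seedlings, against 276 FPKM in ABA-treated and 34.3 FPKM in control wild type. IAGLU, an auxin glucosyltransferase, had 53.5 FPKM in ABA-treated and 21.1 FPKM in control mutant seedlings, against 26.4 FPKM in ABA-treated and 21.3 FPKM in control wild type. In all, 50 of the 92 higher members were in none of the lists.

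AT2G25510 and AT2G25450 carry close locus numbers on chromosome 2 and stood out by their low level in the mutant. AT2G25510 was listed at 0 in control mutant seedlings and had 9.43 FPKM in ABA-treated mutant seedlings, against 276 FPKM in ABA-treated and 485 FPKM in control wild type. AT2G25450, annotated as a 2-oxoglutarate-dependent oxygenase, had 41.3 FPKM in ABA-treated and 6.29 FPKM in control mutant seedlings, against 1269 FPKM in ABA-treated and 341 FPKM in control wild type. Both were thus higher in ABA-treated than in control mutant seedlings, at levels far under both wild-type groups. A fold against a value of 0 is not given, and the log2 ratio of AT2G25510 rests on the added 1 FPKM.

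Among the lists, that of sulfur shortage held the most lower members. Plants switch these genes on when sulfate is scarce, and they encode sulfate uptake and reduction, glutathione breakdown and regulators of glucosinolates. Of 11 members 8 were lower and 1 was higher in the mutant, with a median log2 ratio of -1.30 in the mutant and -0.66 in wild type. SDI1, a repressor of aliphatic glucosinolate synthesis, had 13.8 FPKM in ABA-treated and 116 FPKM in control mutant seedlings, a log2 ratio of -2.98, against 5.22 FPKM in ABA-treated and 11.1 FPKM in control wild type. LSU1 had 36.0 FPKM in ABA-treated and 161 FPKM in control mutant seedlings, against 8.71 FPKM in ABA-treated and 14.5 FPKM in control wild type. GGCT2;1, which degrades glutathione, had 19.4 FPKM in ABA-treated and 80.7 FPKM in control mutant seedlings, against 2.69 FPKM in ABA-treated and 18.16 FPKM in control wild type. APR1, a sulfate-reducing enzyme, had 55.4 FPKM in ABA-treated and 124 FPKM in control mutant seedlings, against 30.1 FPKM in ABA-treated and 48.2 FPKM in control wild type.

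The level of the sulfur list in untreated seedlings was high in the mutant. Its median was 20.5 FPKM in ABA-treated and 80.7 FPKM in control mutant seedlings, against 14.7 FPKM in ABA-treated and 16.4 FPKM in control wild type. ABA-treated mutant seedlings thus stood closer to both wild-type groups than control mutant seedlings did. DIN2, a beta-glucosidase that is also a senescence gene, was the exception with 20.2 FPKM in ABA-treated and 5.03 FPKM in control mutant seedlings. SULTR1;2, the main sulfate importer of roots, had 17.97 FPKM in ABA-treated and 22.9 FPKM in control mutant seedlings, against 44.5 FPKM in ABA-treated and 19.5 FPKM in control wild type. Under mannitol SDI1 had 94.3 FPKM in mutant and 10.97 FPKM in wild-type seedlings.

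Light-harvesting antenna genes were lower in part. Of 17 members 7 were lower (against 1.56% of all members) and none was higher in the mutant. The median log2 ratio of -0.89 was close to the -0.92 of wild type. LHCB1.4 had 42.6 FPKM in ABA-treated and 172 FPKM in control mutant seedlings, against 54.4 FPKM in ABA-treated and 631 FPKM in control wild type. LHCB2.3 had 14.5 FPKM in ABA-treated and 54.4 FPKM in control mutant seedlings, against 17.35 FPKM in ABA-treated and 36.0 FPKM in control wild type. LHCB3, a single-copy antenna gene, had 155 FPKM in ABA-treated and 352 FPKM in control mutant seedlings, against 143 FPKM in ABA-treated and 266 FPKM in control wild type. The LHCB1 and LHCB2 genes are near-identical copies whose single values are uncertain, while LHCB3 has no such copy in the list. The most abundant copy, LHCB1.3, had 3303 FPKM in ABA-treated and 6120.45 FPKM in control mutant seedlings, against 4954 FPKM in ABA-treated and 7171 FPKM in control wild type. Antenna genes of photosystem I and LHCB4 to LHCB6 stayed within 2-fold. Photosystem and Rubisco genes as a list had a median log2 ratio of 0.12 in the mutant and -0.50 in wild type, and none was lower in the mutant.

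Plant defensins, secreted antifungal peptides induced by jasmonate and ethylene, were lower in a subset. In the list of defensins and their regulators 4 of 10 members were lower (against 1.56% of all members) and none was higher. The median log2 ratio of that list was -0.44 in the mutant and -3.01 in wild type. The 4 lower members were PDF1.2A, PDF1.2B, PDF1.2C and PDF1.3, which are near-identical copies and may not be separate measurements. PDF1.2A had 142 FPKM in ABA-treated and 412 FPKM in control mutant seedlings, against 0.434 FPKM in ABA-treated and 91.3 FPKM in control wild type. PDF1.2C had 45.3 FPKM in ABA-treated and 193 FPKM in control mutant seedlings, against 0.0968 FPKM in ABA-treated and 44.7 FPKM in control wild type. These genes were nearly silent in ABA-treated wild type and stayed well expressed in ABA-treated mutant seedlings. For wild type the authors' deposited table called PDF1.2B and PDF1.3 changed, but not PDF1.2A and PDF1.2C. Their regulator ORA59 had 6.39 FPKM in ABA-treated and 9.08 FPKM in control mutant seedlings, against 0.508 FPKM in ABA-treated and 12.4 FPKM in control wild type. By description, 9 of 48 defensin and thionin members were lower and none was higher in the mutant, and 24 were lower in wild type. Of all members 1.56% were lower in the mutant and 23.2% in wild type.

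Several genes of salicylate immunity were lower in the mutant, although the standard markers were not. In that list 3 of 11 members were lower (against 1.56% of all members) and none was higher. Its median log2 ratio was -0.24 in the mutant and -0.61 in wild type. PCC1 had 14.02 FPKM in ABA-treated and 84.6 FPKM in control mutant seedlings, a log2 ratio of -2.51, against 6.58 FPKM in ABA-treated and 23.2 FPKM in control wild type. AT3G22235 had 63.4 FPKM in ABA-treated and 264 FPKM in control mutant seedlings, against 35.02 FPKM in ABA-treated and 86.5 FPKM in control wild type. PCR1, a small membrane protein of cadmium resistance, had 1.84 FPKM in ABA-treated and 9.80 FPKM in control mutant seedlings, against 5.72 FPKM in ABA-treated and 3.28 FPKM in control wild type. It passed the limit on FPKM through control mutant seedlings alone. PR1, the usual salicylate marker, had 11.7 FPKM in ABA-treated and 11.8 FPKM in control mutant seedlings. WRKY70 had 38.3 FPKM in ABA-treated and 44.0 FPKM in control mutant seedlings.

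Genes outside the lists added to this immune set, again picked after their values were seen. LURP1, needed for defence against a downy mildew, had 22.3 FPKM in ABA-treated and 81.9 FPKM in control mutant seedlings, against 9.92 FPKM in ABA-treated and 12.3 FPKM in control wild type. ACD6, an ankyrin protein that promotes salicylate defence, had 25.3 FPKM in ABA-treated and 68.1 FPKM in control mutant seedlings, against 33.3 FPKM in ABA-treated and 33.4 FPKM in control wild type. SARD1, a regulator of salicylate synthesis, had 2.86 FPKM in ABA-treated and 6.90 FPKM in control mutant seedlings, against 2.35 FPKM in ABA-treated and 2.33 FPKM in control wild type. All of these lay within 2-fold in wild type, where both groups were lower than control mutant seedlings. SARD1 passed the limit on FPKM through control mutant seedlings alone. ICS2, an isochorismate synthase, had 5.43 FPKM in ABA-treated and 19.1 FPKM in control mutant seedlings, against 6.05 FPKM in ABA-treated and 15.5 FPKM in control wild type. Of the 65 lower members 27 were not lower in wild type, 25 of them within 2-fold and 2 of them higher there. Many of these 27, such as NAC036, IGMT2 and AT5G59670, passed the limit on FPKM through control mutant seedlings alone, so they had to differ. Over all members 23.2% were lower and 15.3% were higher in wild type. Of the 65 lower members 41 were in none of the lists.

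**Figure D4:**
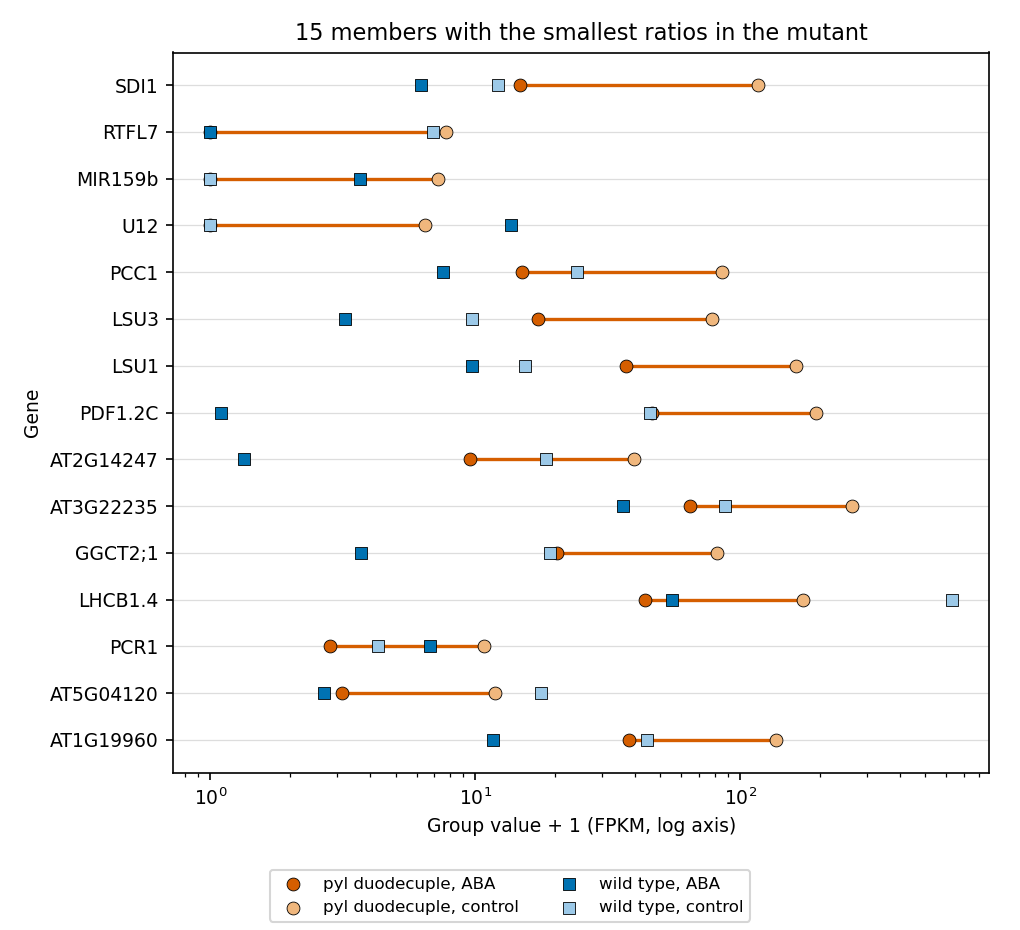
The 15 members with the smallest log2 ratio in the mutant, drawn as the authors' value plus 1 in FPKM on a log axis for ABA-treated and control mutant seedlings (circles, joined by a line) and ABA-treated and control wild type (squares). ABA-treated mutant seedlings sit left of the control mutant seedlings in every row, and symbols at 0 FPKM cover each other in the rows of RTFL7, MIR159b and U12. In all rows but those of LHCB1.4, U12 and AT5G04120, control mutant seedlings lie right of both wild-type groups.

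The ratios of 3 of these genes rest on a value of 0. RTFL7, a small peptide gene of the ROTUNDIFOLIA family, was listed at 0 in ABA-treated mutant seedlings and had 6.77 FPKM in control mutant seedlings, and it was listed at 0 in ABA-treated wild type and had 5.94 FPKM in control wild type. MIR159b was listed at 0 in ABA-treated mutant seedlings and had 6.22 FPKM in control mutant seedlings, against 2.67 FPKM in ABA-treated wild type and 0 in control wild type. U12 was listed at 0 in ABA-treated mutant seedlings and had 5.48 FPKM in control mutant seedlings, against 12.7 FPKM in ABA-treated wild type and 0 in control wild type. MIR159b and U12 are loci of short RNAs, for which FPKM from a library of long RNA is doubtful. No fold is given for these genes.

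Cell type and growth markers of whole seedlings stayed within 2-fold in the mutant. The 13 mitotic members had a median log2 ratio of -0.34 in the mutant and -1.18 in wild type, where 10 of them were lower. KNOLLE, a syntaxin of the dividing cell plate, had 30.5 FPKM in ABA-treated and 39.3 FPKM in control mutant seedlings, against 10.02 FPKM in ABA-treated and 27.3 FPKM in control wild type. The 13 root tissue members had a median of -0.17 in the mutant and -1.61 in wild type. The 14 root hair members were all under their control value, with a median of -0.56 in the mutant and -0.63 in wild type, and the widest was XTH13 with 2.69 FPKM in ABA-treated and 6.001 FPKM in control mutant seedlings. Only 3 guard cell markers were members, and no seed storage gene was. The part of root hair cells in the other results was not tested.

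In further lists the members lay within 2-fold in the mutant, like 96.2% of all members, while many lay outside it in wild type. Anthocyanin genes, which make the red pigments of stressed leaves, had a median log2 ratio of -0.12 in the mutant and 1.45 in wild type over 11 members, 7 of them higher in wild type. DFR, an enzyme of that pathway, had 82.3 FPKM in ABA-treated and 103 FPKM in control mutant seedlings, against 238 FPKM in ABA-treated and 36.1 FPKM in control wild type. Type-A response regulators, negative regulators of cytokinin signalling, had a median of 0.19 in the mutant and -1.38 in wild type over 8 members, 6 of them lower in wild type. ARR7 had 30.8 FPKM in ABA-treated and 24.1 FPKM in control mutant seedlings, against 5.11 FPKM in ABA-treated and 50.5 FPKM in control wild type. No member of the phosphate, nitrogen, hypoxia, jasmonate, clock, aquaporin, ethylene or auxin lists was higher or lower in the mutant. The phosphate genes had unlike levels in the genotypes but no ABA difference of that size, as for IPS1 with 19.4 FPKM in ABA-treated and 18.6 FPKM in control mutant seedlings, against 0.0686 FPKM in ABA-treated and 0.323 FPKM in control wild type.

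Families were also taken by their description, and their counts are to be read against the 2.21% of members that were higher and the 1.56% that were lower. The families with no higher or lower member in the mutant are near those shares and are not set apart by them. None of 33 class III peroxidases was higher or lower in the mutant, while 5 were higher and 16 were lower in wild type. None of 16 expansins, which loosen cell walls, was higher or lower in the mutant, while 2 were higher and 9 were lower in wild type. None of 13 WRKY factors, 27 MYB factors and 39 ribosomal proteins was higher or lower in the mutant, and 2 of 128 protein kinases were lower.

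**Figure D5:**
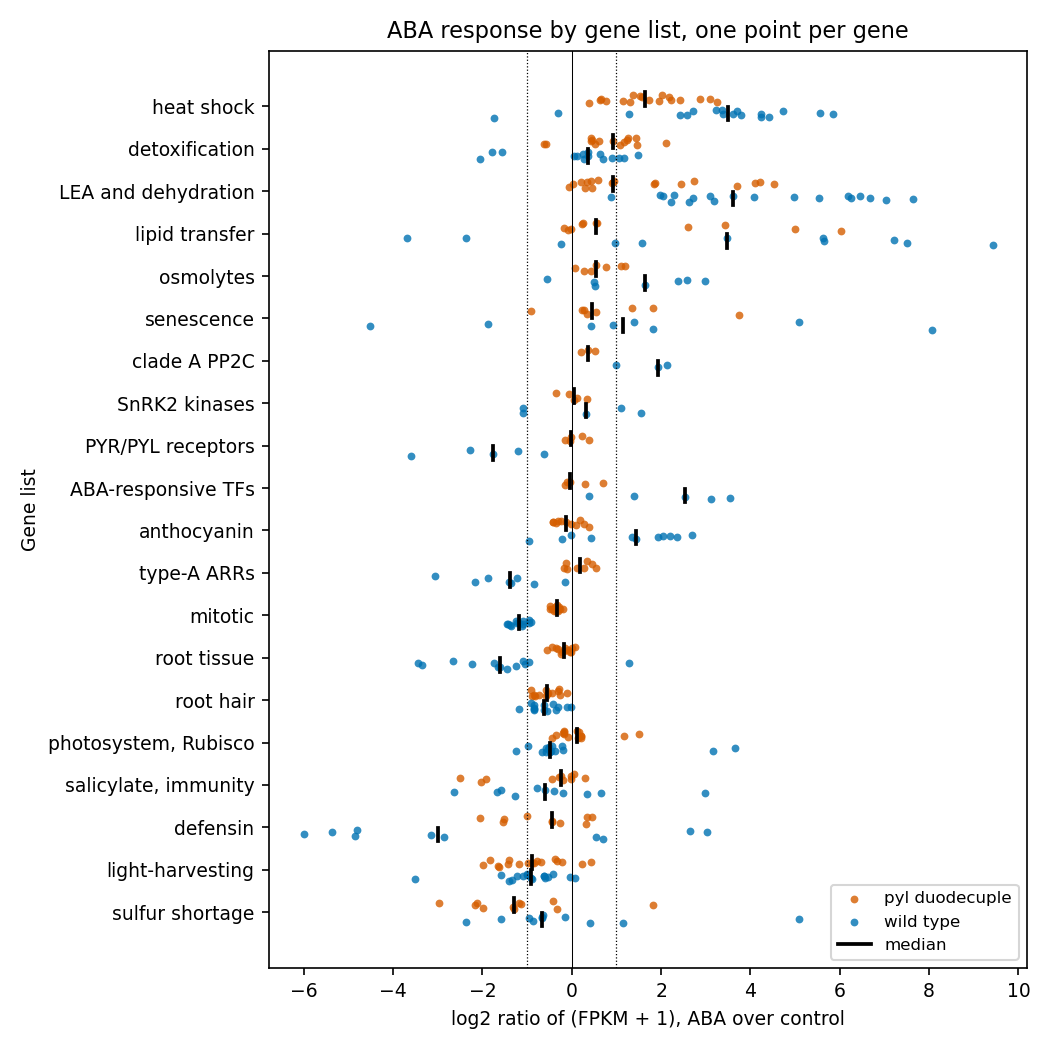
Log2 ratios of (FPKM + 1), ABA over control, for the members of a selection of the gene lists, with the mutant in the upper and wild type in the lower line of each list, 1 point per gene, black bars at the medians and dotted lines at the 2-fold limits. Mutant points of heat shock genes centre on 1.64, 7 of the 18 being members through the ABA-treated group alone, and those of sulfur shortage genes on -1.30, and those of receptors, phosphatases, anthocyanin genes and type-A regulators stay between the dotted lines.

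Promoter sequences were searched on both strands in the 250 bases before the gene start. The core ACGTG was in 37.4% of 91 promoters of higher members, in 41.9% of 62 promoters of lower members, in 28.4% of 3937 promoters of members within 2-fold and in 22.9% of all 27443 promoters. With the 50 bases after the start added the order of higher and lower members turned, with 47.3% of higher, 43.5% of lower and 26.7% of all promoters holding it. The G-box CACGTG, which holds that core, was in 14.3% of higher members, 6.45% of lower members, 8.03% of members within 2-fold and 6.49% of all promoters. Members higher in both genotypes held ACGTG in 39.7% of 68 promoters, those higher in the mutant and not in wild type in 30.4% of 23, and those higher in wild type and not in the mutant in 35.8% of 553. The heat shock element in its form of 3 alternating GAA and TTC units was in 4 promoters of higher members (4.40%), in none of the lower members, in 0.457% of members within 2-fold and in 0.386% of all promoters. In the heat shock list 4 of 18 promoters (22.2%) held it. The shorter form GAANNTTC was in 16.5% of higher members, 8.06% of lower members and 9.55% of all promoters. The W-box core TTGAC was in 47.3% of higher members, 50% of lower members and 44.9% of all promoters, and with the 50 added bases in 48.4%, 53.2% and 50.5% of them. The sulfur-responsive core GAGAC was in 31.9% of higher members, 29.0% of lower members and 25.8% of all promoters. A match describes letters in a window and is not a binding site.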

How the data were processed

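RNA was extracted with Trizol from whole seedlings and sequenced, per the labels' protocols. The deposited table holds the authors' FPKM, 1 value per gene and group. TopHat, Cufflinks, Cuffdiff and the TAIR10 build are named, without versions, in the submitters' processing notes. The header does not name the unit, which was inferred as FPKM from those tools and from the values. The authors' yes or no calls were used for statements of what was called and as an alternative to the 2-fold limit. Of their deposited log2 ratios only that of HAI1 is printed. Other deposited files were not used.

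Members had at least 5 FPKM in the higher of the ABA-treated and control mutant groups. Log2 ratios of (value + 1) were computed with Python 3.11.15, pandas 2.3.3 and numpy 2.4.6, and figures with matplotlib 3.10.9. The calculations were tested on simulated data. The planned limma fit could not be made on 1 value per group, so the 2-fold limit stands in for a test. Depth per library is unknown. Members and gene lists were chosen with earlier results of these data known. The genes named were the 15 largest and 15 smallest ratios, the 5 largest each way among those under 2-fold in wild type, the 5 largest differences each way between the genotypes, up to 5 of each of the 35 lists by size, the receptors and clade A phosphatases, and the genes at the 5 FPKM limit. Other genes were named after their values were seen. Some genes of this rule have no value in the text. Gene positions came from the RefSeq annotation of TAIR10.1, matched by locus identifier (4144 of 4154 members). The build differs from the label, so only sequence and positions of TAIR10.1 are given. Alternatives covered the pseudocount, the minimum, the fold limit, centring on the median, the authors' calls, the promoter window and, added after the values were seen, a minimum in control mutant seedlings alone.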

Additional observations from a re-analysis of the deposited data

Results flagged for a closer look

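These genes had an ABA difference of at least 2-fold in opposite directions in the genotypes. The difference between genotypes was not tested, since each group has 1 value, and each number is the mutant minus the wild-type log2 ratio of (FPKM + 1).

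AT4G15660, a thioredoxin superfamily protein, had 6.62 FPKM in ABA-treated and 2.68 FPKM in control mutant seedlings, against 0.503 FPKM in ABA-treated and 8.66 FPKM in control wild type, a difference of 3.74. GSTU25 differed by 3.03 with the values given above. AT4G08555 had 117 FPKM in ABA-treated and 40.0 FPKM in control mutant seedlings, against 8.94 FPKM in ABA-treated and 23.3 FPKM in control wild type, a difference of 2.82. ZIP2, a transporter of the zinc and iron family, had 20.5 FPKM in ABA-treated and 8.38 FPKM in control mutant seedlings, against 3.23 FPKM in ABA-treated and 10.7 FPKM in control wild type, a difference of 2.66. AT4G39675 had 31.8 FPKM in ABA-treated and 14.6 FPKM in control mutant seedlings, against 13.4 FPKM in ABA-treated and 31.7 FPKM in control wild type, a difference of 2.25. MIR159b differed by -4.73 and U12 by -6.47, both resting on values of 0.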

How the results depend on the processing

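No list median that was at least 2-fold in either direction changed sign. For named genes only the added value was varied, which cannot change the sign of a ratio, so their signs were not put to a test. Some smaller list medians did change sign, as for the receptor list at -0.01 over members and 0.09 over its listed genes. The order of promoter shares did turn with 50 bases after the start added, as given above for ACGTG and TTGAC and below for GAANNTTC. With 5 FPKM added in place of 1, 61 members were higher and 39 lower in the mutant, all of them in the 92 and 65 above, 19 were lower in both genotypes and 15 were higher in the mutant and not in wild type. A 1.5-fold limit gave 279 higher, 220 lower, 186 higher in both, 162 lower in both, 93 higher in the mutant and not in wild type and 58 lower in the mutant and not in wild type. A 4-fold limit gave 24, 10, 20, 3, 4 and 7 for the same counts. The members lower in the mutant and not in wild type were 41 with a minimum of 1 FPKM, 41 with no minimum and 14 with a minimum of 10 FPKM. With a minimum of 5 FPKM in control mutant seedlings, an alternative chosen after seeing the data, 53 were higher, all among the 92, and 35 were higher in both genotypes. These counts follow from how many genes each limit admits. Of 60 alternative counts, 39 stayed within 1.5 times. All 194 alternative list medians stayed within 1.5-fold, as did 315 of 348 values of named genes, and a minimum leaves the ratio of a gene as it is. With 50 bases after the start added, the heat shock element was in 7.69% of promoters of higher members. GAANNTTC was then in 12.9% of those of lower members and 11.6% of all promoters, against 8.06% and 9.55% without these bases.

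No paired analysis was possible because the table holds 1 value per group. For the same reason no fit without single libraries exists, and neither replicate error nor depth is known.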
